A study of Mus musculus with 3 samples.

Results

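The genes described here are the collagen chain genes and the laminin chain genes of the mouse other than Col1a2, Col2a1, Col3a1, Col9a1 and Col11a2. They were found by symbol alone, as Col, a number, a and a number, or Lama, Lamb or Lamc and a number, which gave 50 genes (39 collagen and 11 laminin chains) of the 31053 genes measured. Single-cell RNA sequencing (10x Genomics 3' chemistry) had been run on organoids of C57BL/6 mice, grown in 3 dimensions from Lgr5+ cochlear progenitor cells. The expansion organoids (passage 2, day 8) were held in DMEM/F-12 with GlutaMAX, penicillin/streptomycin, N2, B27, EGF at 20 ng/mL, bFGF at 10 ng/mL, IGF at 50 ng/mL and 3 further agents whose doses the labels give with the unit written um, namely CHIR99021 at 3, Y27-632 at 10 and LPA at 2.5. The day 5 organoids had the same expansion culture followed by 5 days in a differentiation medium that held LY4115775, A83-01 and RA together with the proteins Shh, BDNF and bFGF. The day 25 organoids had the same history, with LY4115775 taken out after day 5. All 3 groups thus share the expansion step, dissociation in 0.125% trypsin and sorting of single living cells. Each group is 1 library, the number of animals behind it is not given, and no difference between groups has a replicate check.

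Collagens are secreted or membrane-bound proteins built of 3 chains wound into a triple helix. Fibril-forming types make ropes, fibril-associated types coat them, type IV makes the mesh of basement membranes, and some types stay in the cell membrane. Laminins are cross-shaped trimers of an alpha, a beta and a gamma chain that nucleate basement membranes and bind integrins and dystroglycan. In the cochlea, collagens of types II, IX and XI fill the tectorial membrane, an acellular sheet over the hair cells secreted by the neighbouring epithelium, and type IV collagen and laminins line the epithelium and the vessels of the lateral wall. In humans, inherited faults in type XI and in several type IV chains are known causes of hearing loss.

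After removal of barcodes with under 500 genes or over 20% mitochondrial UMIs (unique molecular identifiers, each marking 1 captured transcript) and of called doublets, 25966 expansion cells, 13253 day 5 cells and 6134 day 25 cells were kept, with 178795956, 130131921 and 72545083 UMIs. Levels are given as CPM, which scales a gene's UMIs to the total UMIs of the summed cells. Since the kit reads transcript 3' ends, levels are not divided by gene length, and levels of different genes are compared on this scale. Cells were put into 3 classes by a few marker counts. Otor-high cells (2402, 4321 and 331 in expansion, on day 5 and on day 25) had at least 20 Otor UMIs per 10000. Pou4f3-positive cells (154, 331 and 1534) had at least 2 UMIs of this hair cell transcription factor. Epcam-positive cells (14831, 6459 and 3513) had at least 2 UMIs of this epithelial adhesion gene. The median cell of these classes had 3768, 5912 and 7510 UMIs (Otor-high), 7103, 8930 and 9577.5 UMIs (Pou4f3-positive) and 6370, 6478 and 8989 UMIs (Epcam-positive) in the 3 libraries. The remaining 8579, 2142 and 756 cells had no class. The Otor cut runs through a continuous range: with 50 in place of 20 UMIs per 10000, 256, 3174 and 166 Otor-high cells were left.

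The markers of other cell types were checked in each class. The 11 hair cell markers other than Pou4f3 summed to 4218, 16139 and 11950.5 CPM in Pou4f3-positive cells, against 49.9, 111 and 191 CPM in Epcam-positive cells. The cochlear mesenchyme genes Pou3f4 and Tbx18 were at 149, 293 and 241 CPM and at 164, 231 and 267 CPM in Otor-high cells, whereas Dcn and Lum, listed with them, were higher in Epcam-positive cells in every library. That list also holds Otor, which defines the class. Its other 10 genes summed to 479, 1139 and 1198 CPM in Otor-high cells and 735, 2442 and 1517 CPM in Epcam-positive cells. This sum was lower in Otor-high cells in each library. Most of the Epcam-positive sum was Dcn (388, 1245 and 422 CPM) and Lum (289, 1150 and 1072 CPM). Col3a1, Pdgfra and Twist1 were higher in Otor-high than in Epcam-positive cells in each library. Postn was higher there on day 5 and on day 25. Col1a2 was higher on day 25 but at 6.88 and 7.90 CPM on day 5. Prrx1 was at 44.1 and 43.7 CPM in expansion and higher in Otor-high cells later. The 6 endothelial markers summed to 617, 688 and 788 CPM in Otor-high cells and 17.9, 11.3 and 3.50 CPM in Epcam-positive cells. Nearly all of the Otor-high sum was Emcn, at 600.0, 654 and 774 CPM in Otor-high cells, against 14.9, 9.62 and 2.46 CPM in Epcam-positive cells. Kdr was at 15.5, 27.5 and 3.1 CPM in Otor-high cells, against 0.683, 0.493 and 0.191 CPM in Epcam-positive cells. Tek was at 9.70 CPM on day 25 in Otor-high cells, against 0.658 CPM in Epcam-positive cells, and Cdh5 at 1.16 CPM, against 0 CPM. Pecam1 and Cldn5 stayed at or below 0.355 CPM in both classes in every library. The 6 pericyte markers summed to 13.7, 106 and 142 CPM in Otor-high cells and 7.09, 13.9 and 18.8 CPM in Epcam-positive cells, with Pdgfrb at 5.54, 94.9 and 127 CPM in Otor-high cells. The part of vessel-associated cells in the Otor-high results was not tested, and a class is named below only by its rule. Genes that were high in a class were also counted at a low level in another. On day 5, Pou3f4 was at 293 CPM in Otor-high cells and 3.31 CPM in Epcam-positive cells. The epithelial gene Cldn7 was at 9.19 CPM in Otor-high cells and 295 CPM in Epcam-positive cells. The source of these low counts was not tested.

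The 150 bases before the start of 4 members are printed here because the results turn on which class of cells held them: Col11a1 and Lama5 were highest in Epcam-positive cells, and Col23a1 and Col8a1 in Otor-high cells. They are RefSeq sequences of build GRCm38.p6, 5' to 3' on the gene's strand, at chr3:114030390-114030539 (Col11a1, plus strand), chr2:180225860-180226009 (Lama5, minus strand), chr11:51289770-51289919 (Col23a1, plus strand) and chr16:57754738-57754887 (Col8a1, minus strand). Capitals mark, on either strand, the TATA box read as TATAAA, the box known as CCAAT, the GC box read as GGGCGG, and the SOX-type motif read as ACAATG.
Col11a1: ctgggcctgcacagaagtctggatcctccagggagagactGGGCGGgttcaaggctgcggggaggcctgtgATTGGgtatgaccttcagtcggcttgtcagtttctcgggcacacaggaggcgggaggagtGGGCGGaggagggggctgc
Lama5: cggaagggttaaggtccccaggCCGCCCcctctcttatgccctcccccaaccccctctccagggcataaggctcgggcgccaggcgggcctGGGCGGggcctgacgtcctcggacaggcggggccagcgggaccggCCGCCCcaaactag
Col23a1: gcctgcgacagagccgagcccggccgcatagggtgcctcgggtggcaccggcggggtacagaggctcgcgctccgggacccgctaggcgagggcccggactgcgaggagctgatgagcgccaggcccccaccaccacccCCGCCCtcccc
Col8a1: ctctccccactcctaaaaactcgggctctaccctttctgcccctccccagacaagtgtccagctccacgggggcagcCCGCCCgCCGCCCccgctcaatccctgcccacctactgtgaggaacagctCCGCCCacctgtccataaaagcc
The GC box stood in all 4 windows, at 2, 3, 1 and 3 places in the order printed, and the CCAAT box in that of Col11a1 alone. The TATA box and the SOX-type motif were in none of them. Bases G and C made up 64.7%, 73.3%, 76.7% and 64.7% of the windows. A RefSeq promoter was found for 36 of the 50 members, in 39 windows. Over 250 bases before the start, the GC box was in 56.4% of the member windows, against 32.7% of all 32851 mouse windows. The TATA box was in 7.69% of member windows and 12.4% of all windows, the CCAAT box in 30.8% and 33.8%, and the SOX-type motif in 2.56% and 10.7%. These shares describe letters and say nothing of binding.

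Of the 50 members, 24 reached 20 CPM in some library or class and are described with values, 13 peaked at 5 to 20 CPM, and 13 stayed under 5 CPM throughout. In whole libraries, 19, 23 and 22 members had at least 5 CPM in expansion, on day 5 and on day 25. All members together made up 1054, 2583 and 1973 CPM. Within classes their sum was 420, 1107 and 1963 CPM in Otor-high cells, 529, 627 and 475 CPM in Pou4f3-positive cells, and 1221, 3201 and 2550 CPM in Epcam-positive cells. The sum was thus highest in Epcam-positive cells in each library, and in Otor-high cells it was higher at each later time. Intervals given below are exact 95% intervals and cover counting error only.

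**Figure D1:**
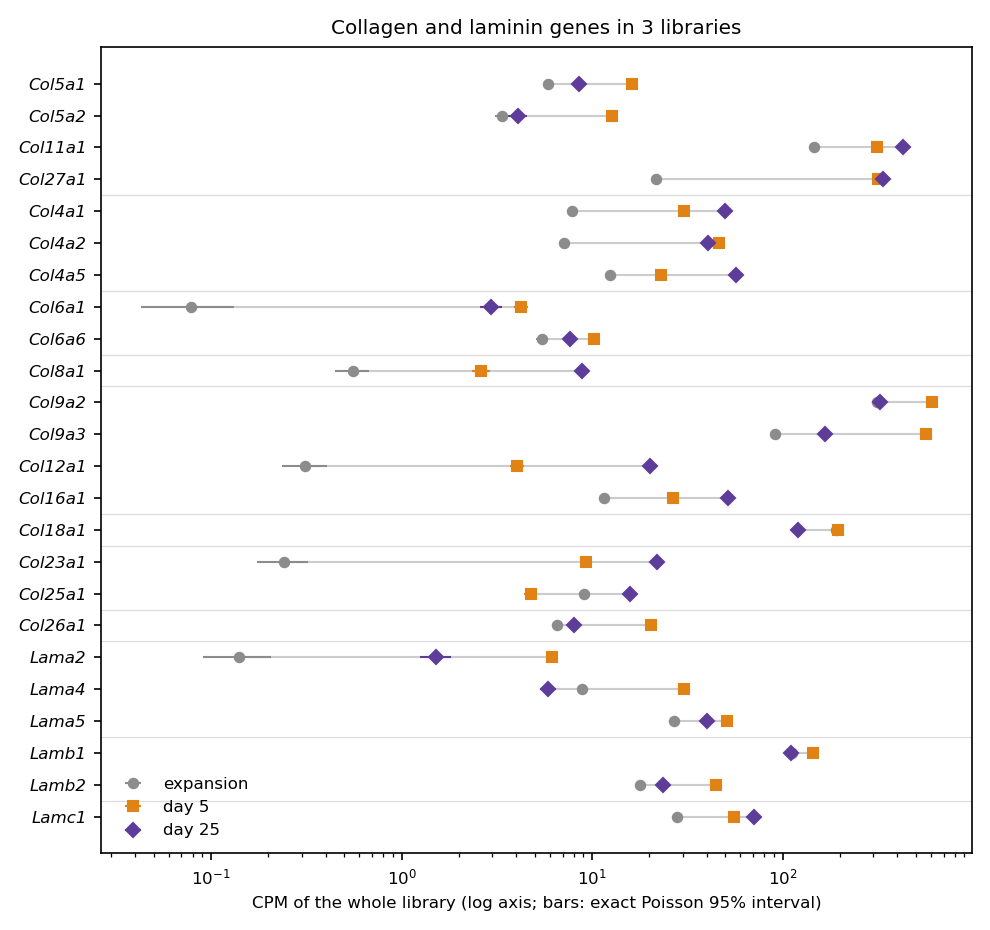
Level of the 24 members that reached 20 CPM, in CPM of the whole library on a log axis, with exact Poisson 95% intervals (circles, expansion; squares, day 5; diamonds, day 25) and thin lines between functional groups. Col27a1 is at 21.6 CPM in expansion and 319 CPM on day 5, and Col12a1 at 0.313 CPM in expansion and 20.2 CPM on day 25.

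A member counted as higher or lower where CPM + 1 differed at least 2-fold and either group had 5 CPM. A member passes this floor through the group in which it is high, so each count is set against the share of all genes that passed the same rule. On day 5 against expansion, 16 of 25 members past the floor were higher, where 16.9% of all genes were, and 1 (Lama1) was lower, where 7.84% were. The median member differed by 1.32 (log2), and the median gene by 0.21. On day 25 against day 5, 5 of 26 were higher and 6 lower, against 19.1% and 7% of all genes, with medians of -0.36 for the members and 0.21 for all genes. With TMM scaling of the libraries, which moves the median gene to -0.09, 3 were higher and 10 lower. Of 10972 genes, 1353 were then higher and 1395 lower. On day 25 against expansion, 11 of 23 were higher and 1 lower, against 31.7% and 9.68% of all genes. With TMM scaling 9 of 23 were higher and 3 lower, where 1976 and 2365 of 11153 genes were. These 3 comparisons share libraries and do not check one another. They also mix cells, since Otor-high cells made up 9.25%, 32.6% and 5.40% of the kept cells and Pou4f3-positive cells 0.593%, 2.50% and 25.0%, so values are given by class below.

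Between classes of the same library, members were found higher and lower in Otor-high than in Epcam-positive cells, and most of those called in Pou4f3-positive cells were lower there. In Otor-high against Epcam-positive cells, 6 of 21, 12 of 28 and 17 of 30 members past the floor were higher in expansion, on day 5 and on day 25, where 5.2%, 11.8% and 14.3% of all genes were. In the same comparisons 10, 9 and 8 members were lower, where 13.9%, 12.2% and 13.3% of all genes were. In Pou4f3-positive against Epcam-positive cells, 2 of 17, 3 of 21 and 4 of 21 members were higher, near the 13%, 19% and 20.9% of all genes, and 10, 15 and 15 were lower, where 9.15%, 17.5% and 18.9% of all genes were. The median member differed by -1.06, -2.07 and -2.25 (log2) between these 2 classes, and the median gene by 0.02, 0.05 and 0.15. With the Pou4f3 and Epcam cuts both at 1 UMI, 4 of 15 and 7 of 21 members were lower in expansion and on day 5. In that setting 251 of 10483 and 434 of 10707 of all genes were lower. With called doublets kept, 6 of 16 members were lower in expansion, where 549 of 10516 genes were. Both sets of comparisons use the same Epcam-positive cells.

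**Figure D2:**
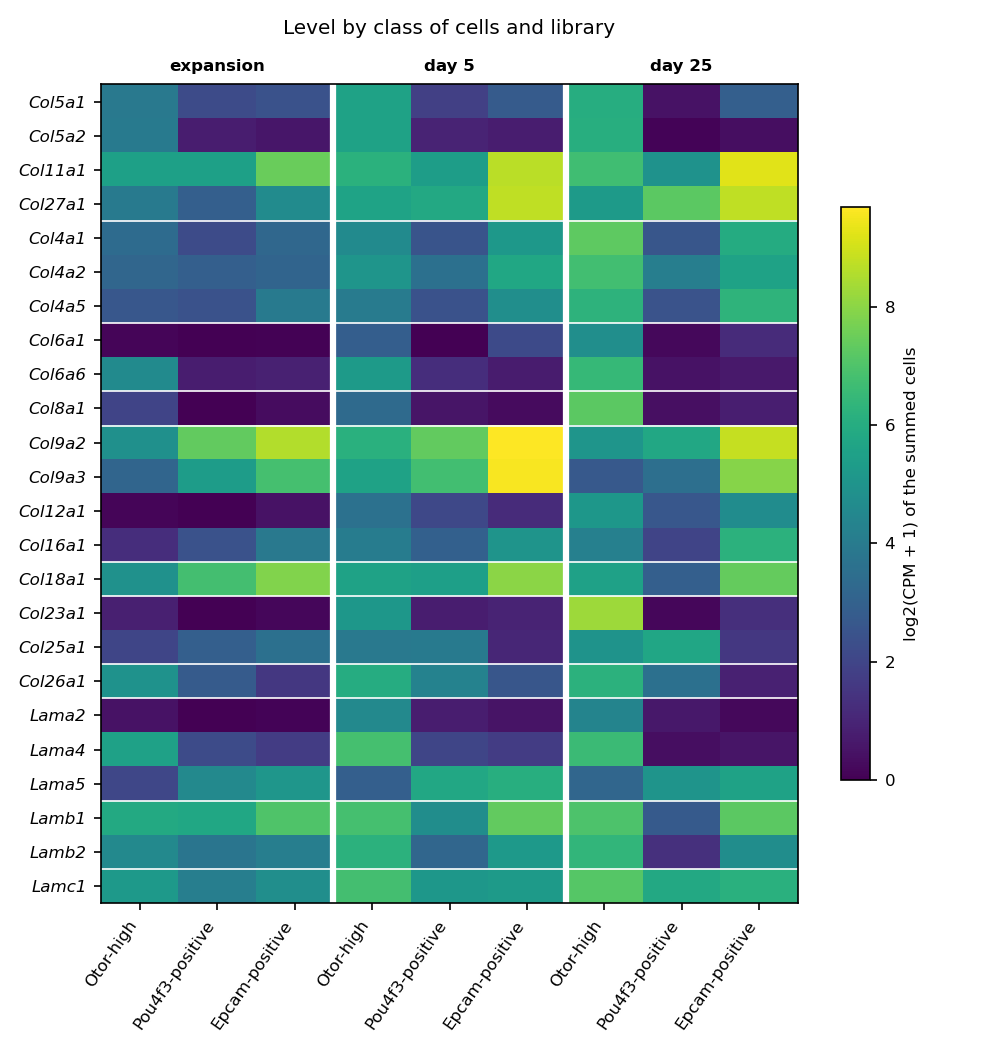
Level of the 24 members in each class of cells, as log2(CPM + 1) of the summed cells, with 3 columns per library (Otor-high, Pou4f3-positive and Epcam-positive) and rows in functional groups. Col9a2, Col9a3, Col11a1 and Col27a1 are brightest in Epcam-positive cells, and Col23a1, Col8a1, Col6a6 and Lama4 in Otor-high cells.

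**Figure D3:**
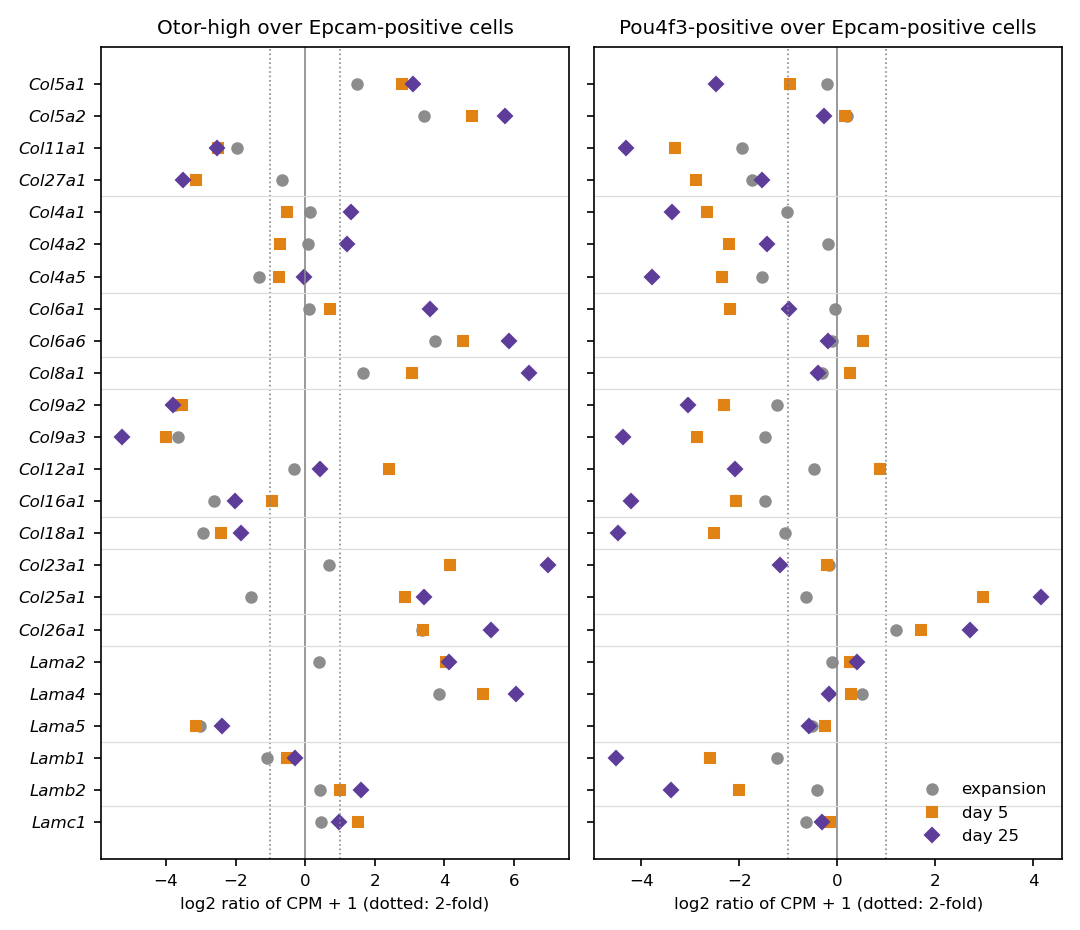
Difference of the 24 members between classes in each library, as the log2 ratio of CPM + 1, for Otor-high over Epcam-positive cells (left) and Pou4f3-positive over Epcam-positive cells (right); dotted lines mark 2-fold. Col25a1 and Col26a1 are the members right of the dotted line in both panels on day 25, and Lama4 and Lama5 lie on opposite sides in the left panel.

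Among the 7 fibril-forming members, Col11a1 and Col27a1 carried most of the transcripts, and they were highest in Epcam-positive cells. Col11a1, the alpha 1 chain of type XI collagen, was at 44.7, 71.4 and 104 CPM in Otor-high cells, at 44.5, 40.8 and 29.6 CPM in Pou4f3-positive cells, and at 175, 412 and 608 CPM in Epcam-positive cells in expansion, on day 5 and on day 25. On day 25 it was 5.87-fold lower in Otor-high cells (5.20 to 6.64) and 20.5-fold lower in Pou4f3-positive cells (18.8 to 22.4) than in Epcam-positive cells. Col27a1, a fibrillar collagen of cartilage, was at 14.9, 47.7 and 37.3 CPM in Otor-high cells, at 6.57, 56.8 and 150 CPM in Pou4f3-positive cells, and at 24.3, 427 and 435 CPM in Epcam-positive cells. It was thus low in every class in expansion, and on day 5 it was 3.20-fold higher than in expansion within Otor-high cells (2.70 to 3.82), 8.65-fold higher within Pou4f3-positive cells (4.48 to 19.1, from 9 UMIs in expansion) and 17.6-fold higher within Epcam-positive cells (17.0 to 18.3). On day 25 against day 5 it was higher by 2.65-fold (2.32 to 3.03) within Pou4f3-positive cells alone, where the log2 difference was 1.39. It was 0.87 with called doublets kept, and -0.27 with cells of a single Pou4f3 UMI let into the class.

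The same pattern stood in shares of cells, with each cell thinned to 2000 UMIs. Col27a1 was found in 3.92%, 50.5% and 56.1% of thinned Epcam-positive cells (16.3%, 83.1% and 88.4% without thinning). On day 25 it was in 7.69% of Otor-high cells (5.04 to 11.1) and 19.3% of Pou4f3-positive cells (17.3 to 21.4), or 24.5% and 55.9% without thinning. Col11a1 was in 26.1%, 53.8% and 67.1% of thinned Epcam-positive cells (60.0%, 86.7% and 93.6% without thinning). On day 25, 22.5% of Otor-high and 4.30% of Pou4f3-positive cells had it, or 52.0% and 19.0% without thinning. Thinning left out 4 to 460 shallower cells per class.

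Type V collagen, which sits inside collagen fibrils and sets their width, was highest in Otor-high cells instead. Col5a2, its alpha 2 chain, was at 15.0, 47.1 and 66.7 CPM in Otor-high cells, at 0.730, 0.928 and 0.0556 CPM in Pou4f3-positive cells, and at 0.507, 0.733 and 0.276 CPM in Epcam-positive cells. On day 25 it was 242-fold higher in Otor-high than in Epcam-positive cells (138 to 463). Otor-high cells held 24.9%, 80.3% and 58.1% of Col5a2 UMIs, and cells in no class 63.4%, 15.6% and 37.2%. Col5a1, its alpha 1 chain, was at 14.1, 46.3 and 64.4 CPM in Otor-high cells, at 3.65, 2.55 and 0.390 CPM in Pou4f3-positive cells, and at 4.41, 5.93 and 6.71 CPM in Epcam-positive cells. The alpha 1 chain therefore made up 48.4%, 49.6% and 49.1% of the UMIs of both genes in Otor-high cells, and 89.7%, 89.0% and 96.0% in Epcam-positive cells, with intervals that do not overlap in any library. The rest of the fibril-forming members were low: Col1a1, a chain of type I collagen, peaked at 2.84 CPM (51 UMIs, in Pou4f3-positive cells on day 25) and had no UMI in Otor-high cells on day 25, although Col1a2, the other chain of type I collagen, was at 26.8 CPM there.

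Of the fibril-associated members, the type IX chains Col9a2 and Col9a3 were the most abundant, and they were highest in Epcam-positive cells on day 5. Type IX collagen decorates type II fibrils and needs 3 different chains. Col9a2 was at 27.9, 70.2 and 31.8 CPM in Otor-high cells, at 163, 164 and 54.2 CPM in Pou4f3-positive cells, and at 381, 819 and 456 CPM in Epcam-positive cells. Col9a3 was at 7.96, 47.2 and 5.43 CPM in Otor-high cells, at 39.4, 106 and 10.7 CPM in Pou4f3-positive cells, and at 112, 772 and 243 CPM in Epcam-positive cells. Col9a1, the remaining chain, was at 398, 955 and 531 CPM in Epcam-positive cells, so all 3 chains were highest there on day 5. Col9a3 moved more than its partner: it made up 22.7%, 48.5% and 34.8% of the UMIs of Col9a2 and Col9a3 in Epcam-positive cells, and 22.2%, 40.2% and 14.6% in Otor-high cells. On day 25 against day 5, Col9a3 was 8.69-fold lower within Otor-high cells (5.16 to 15.9), 9.83-fold lower within Pou4f3-positive cells (8.29 to 11.7) and 3.17-fold lower within Epcam-positive cells (3.11 to 3.24). An exon of Col9a3 overlaps one of Tcfl5 on the opposite strand, and reads of the pair can be told apart only if counting used the strand, which the sources used here do not give.

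The other fibril-associated members were less abundant and less alike. Col16a1 was at 1.41, 15.7 and 17.5 CPM in Otor-high cells, at 4.38, 6.73 and 3.00 CPM in Pou4f3-positive cells, and at 13.9, 31.4 and 73.1 CPM in Epcam-positive cells. Col12a1, which links fibrils to the surrounding matrix, was at 0.101, 11.2 and 33.8 CPM in Otor-high cells, at 0, 3.25 and 5.12 CPM in Pou4f3-positive cells, and at 0.382, 1.31 and 25.1 CPM in Epcam-positive cells. Col12a1 thus appeared late in Epcam-positive cells, where it was 19.2-fold higher on day 25 than on day 5 (15.9 to 23.5). Col20a1, a relative of Col12a1, was highest in Pou4f3-positive cells, at 2.92, 9.05 and 8.74 CPM, against 0.470, 2.02 and 3.55 CPM in Epcam-positive cells. Col14a1, another relative, was at 0.499, 7.34 and 3.31 CPM in Epcam-positive cells. Members such as these, which stayed under 20 CPM throughout, were picked for mention after their values were seen.

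The type IV members of basement membranes were all higher on day 25 than on day 5 in Otor-high cells. Their 6 genes summed to 23.2, 74.0 and 368 CPM there in expansion, on day 5 and on day 25. Col4a1 was at 9.37, 23.9 and 153 CPM in Otor-high cells, at 3.65, 4.64 and 4.95 CPM in Pou4f3-positive cells, and at 8.47, 34.8 and 61.0 CPM in Epcam-positive cells. Within Otor-high cells it was 6.38-fold higher on day 25 than on day 5 (5.62 to 7.24), and on day 25 it was 2.50-fold higher in Otor-high than in Epcam-positive cells (2.25 to 2.78). Col4a2, which pairs with Col4a1 in the common type IV trimer, was at 8.06, 32.4 and 108 CPM in Otor-high cells, at 6.57, 10.9 and 16.6 CPM in Pou4f3-positive cells, and at 7.61, 54.0 and 46.5 CPM in Epcam-positive cells. The 2 genes lie head to head on chromosome 8 (GRCm38), Col4a1 at 11198423 to 11312826 on the minus strand and Col4a2 at 11312805 to 11449287 on the plus strand. Their balance nevertheless differed: Col4a2 made up 41.4% of the UMIs of both in Otor-high cells on day 25 (37.7 to 45.3), 77.0% in Pou4f3-positive cells (72.5 to 81.1) and 43.3% in Epcam-positive cells (41.9 to 44.6).

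Col4a5, whose chain joins those of Col4a3 and Col4a4 in a specialised type IV trimer, was at 5.14, 15.4 and 74.9 CPM in Otor-high cells, at 4.38, 4.41 and 4.62 CPM in Pou4f3-positive cells, and at 14.5, 26.7 and 76.7 CPM in Epcam-positive cells. It was 4.88-fold higher on day 25 than on day 5 within Otor-high cells (4.09 to 5.79) and 2.87-fold higher within Epcam-positive cells (2.72 to 3.02). Col4a3, Col4a4 and Col4a6 were far lower, with peaks of 5.43 CPM (14 UMIs), 12.0 CPM (31 UMIs) and 14.7 CPM (38 UMIs) in Otor-high cells on day 25. In Otor-high cells on day 25 against day 5, 16% of all genes past the floor were higher. In Pou4f3-positive against Epcam-positive cells on day 25, 4 of the 6 type IV members were past the floor. All 4 (Col4a1, Col4a2, Col4a4 and Col4a5) were lower, where 18.9% of all genes were.

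Type VI collagen, which forms beaded microfibrils beside basement membranes, had its highest level among the classes in Otor-high cells, at a sum of 26.7, 58.1 and 146 CPM, against 1.64, 13.1 and 5.10 CPM in Epcam-positive cells. The classes differ in size, and Otor-high cells held 22.2%, 50.5% and 35.5% of its UMIs in the 3 libraries, Epcam-positive cells 18.8%, 35.3% and 22.6%, and cells in no class 58.9%, 13.9% and 40.4%. Col6a6 made up most of the sum in Otor-high cells, at 23.6, 37.5 and 89.6 CPM in Otor-high cells, at 0.730, 1.39 and 0.390 CPM in Pou4f3-positive cells, and at 0.859, 0.664 and 0.573 CPM in Epcam-positive cells. On day 25 it was 156-fold higher in Otor-high than in Epcam-positive cells (105 to 242). Col6a1, a chain of the common type VI trimer, came later, at 0.101, 6.46 and 26.8 CPM in Otor-high cells, at 0, 0 and 0.167 CPM in Pou4f3-positive cells, and at 0.0294, 3.54 and 1.30 CPM in Epcam-positive cells. Its expansion value in Otor-high cells rests on 1 UMI. Col6a2 and Col6a3, its partners, were at 0.101, 3.94 and 9.70 CPM and at 0.604, 9.75 and 19.4 CPM in Otor-high cells. On day 5 most UMIs of these 3 chains were in Epcam-positive cells, with 55.8% of Col6a1, 66.4% of Col6a2 and 53.3% of Col6a3. Col8a1, the short-chain collagen of the cornea and of vessel walls, was abundant on day 25 only. It was at 2.92, 9.29 and 150 CPM in Otor-high cells, at 0, 0.464 and 0.334 CPM in Pou4f3-positive cells, and at 0.242, 0.218 and 0.743 CPM in Epcam-positive cells. The day 25 level of Otor-high cells was 16.1-fold above that of day 5 (13.7 to 18.9). It was 202-fold above that of Epcam-positive cells on day 25 (142 to 294). Otor-high cells held 60.4% of Col8a1 UMIs on day 25, and cells in no class 33.2%. Col8a1 was in 0.622%, 1.69% and 25.8% of thinned Otor-high cells and in 0.178% of Epcam-positive cells on day 25, or 1.21%, 5.05%, 53.8% and 0.626% without thinning.

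Col18a1, a basement membrane collagen whose end is cut off as endostatin, was at 28.9, 47.2 and 45.8 CPM in Otor-high cells, at 109, 43.4 and 6.62 CPM in Pou4f3-positive cells, and at 229, 254 and 168 CPM in Epcam-positive cells. Within Pou4f3-positive cells it was lower at each later time, 2.52-fold lower on day 5 than in expansion (2.02 to 3.15) and 6.55-fold lower on day 25 than on day 5 (5.18 to 8.31). In Epcam-positive cells it stayed within 2-fold. Its relative Col15a1 was at 0.198, 6.04 and 0.361 CPM in Epcam-positive cells, with day 5 alone high.

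Of the membrane-spanning collagens, Col23a1 was highest in Otor-high cells. Col23a1, a surface collagen that binds integrins, was at 0.806, 34.2 and 309 CPM in Otor-high cells, at 0, 0.696 and 0.111 CPM in Pou4f3-positive cells, and at 0.125, 0.962 and 1.49 CPM in Epcam-positive cells. On day 25 it was the most abundant member in Otor-high cells, 9.05-fold above day 5 (8.23 to 9.96) and 208-fold above Epcam-positive cells (163 to 270). It was found in 0.133%, 5.72% and 41.5% of thinned Otor-high cells, against 0.0278%, 0.210% and 0.208% of thinned Epcam-positive cells. Without thinning the shares were 0.333%, 15.5% and 70.1% of Otor-high cells and 0.108%, 1.22% and 0.769% of Epcam-positive cells. In whole libraries it was at 0.240, 9.34 and 22.0 CPM. On day 25, Otor-high cells held 50.0% of its UMIs and cells in no class 45.4%.

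Col25a1, a membrane-spanning collagen known in mice for its part in motor innervation of muscle, was highest in Pou4f3-positive cells on day 25. It was at 3.02, 13.9 and 30.7 CPM in Otor-high cells, at 6.57, 15.1 and 51.6 CPM in Pou4f3-positive cells, and at 10.8, 1.03 and 1.95 CPM in Epcam-positive cells. In expansion the Epcam-positive level was the highest, although the interval of Pou4f3-positive cells (3.00 to 12.5, 9 UMIs) covers it. On day 5 the levels of Pou4f3-positive (11.6 to 19.2) and Otor-high cells (12.6 to 15.4) could not be told apart. The thinned shares of cells on day 5 were 2.14% (0.790 to 4.61) and 2.62% (2.14 to 3.17), or 14.5% and 7.57% without thinning, in Pou4f3-positive and Otor-high cells. On day 5 it was 10.5-fold lower than in expansion within Epcam-positive cells (8.50 to 13.2), while it was 4.60-fold higher within Otor-high cells (3.17 to 6.91) and 2.30-fold higher within Pou4f3-positive cells (1.14 to 5.24). On day 25 it was 26.4-fold higher in Pou4f3-positive than in Epcam-positive cells (21.3 to 33.1), in 7.39% against 0.595% of thinned cells (33.8% and 2.39% without thinning). Of thinned Otor-high cells on day 25, 6.46% had it (4.04 to 9.71), or 19.6% without thinning, and the interval covers the share in Pou4f3-positive cells. Col13a1, the remaining surface collagen with over 5 CPM, was at 6.85, 0.816 and 2.33 CPM in Otor-high cells. Col26a1, a small secreted collagen of little known function, was at 29.3, 62.4 and 72.6 CPM in Otor-high cells, at 5.84, 18.8 and 11.0 CPM in Pou4f3-positive cells, and at 1.96, 5.02 and 0.828 CPM in Epcam-positive cells.

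**Figure D4:**
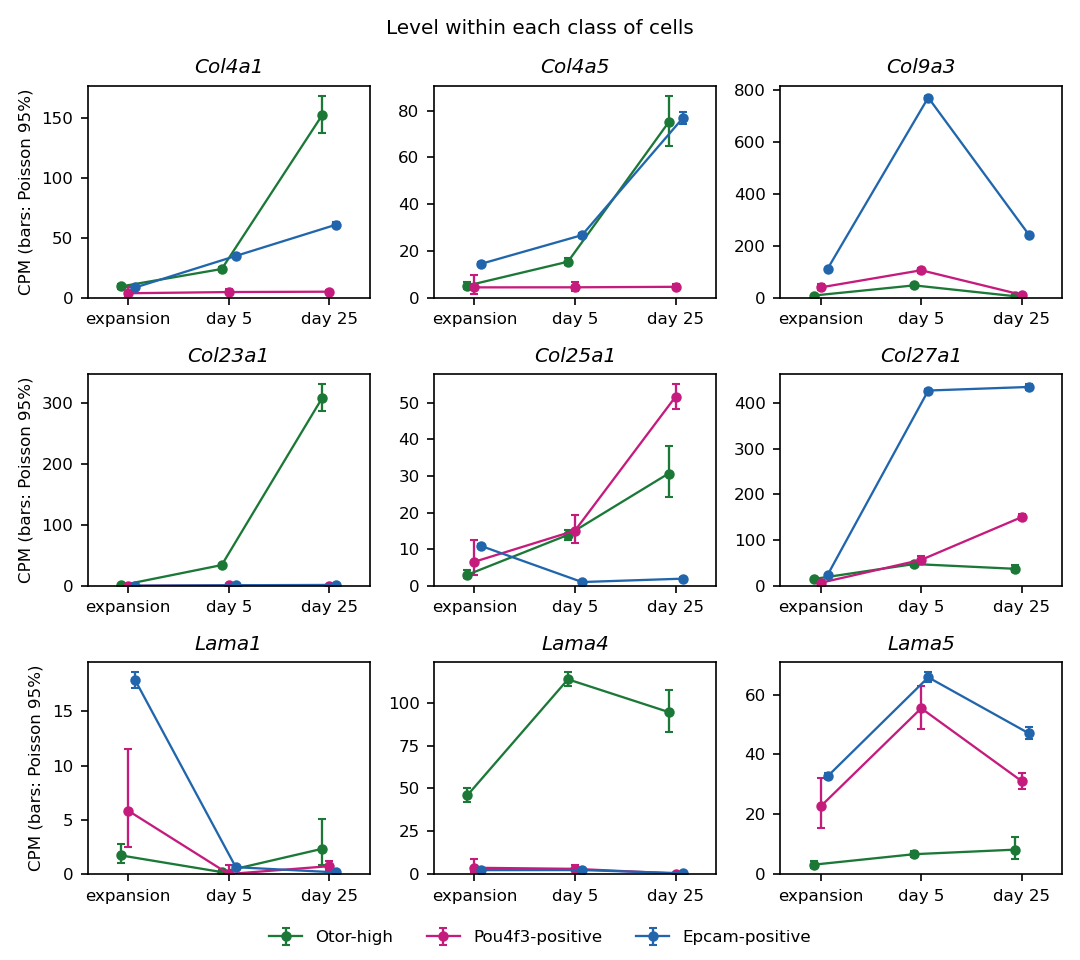
Level of 9 members within each class in expansion, on day 5 and on day 25, in CPM of the summed cells with exact Poisson 95% intervals (green, Otor-high; pink, Pou4f3-positive; blue, Epcam-positive cells); each panel has its own axis, starting at 0. Col25a1 in Epcam-positive cells is at 10.8, 1.03 and 1.95 CPM, and in Pou4f3-positive cells at 6.57, 15.1 and 51.6 CPM.

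The leading laminin alpha chain was Lama4 in Otor-high cells and Lama5 in both other classes. Lama4, known from vessel walls and mesenchyme, was at 46.0, 114 and 94.7 CPM in Otor-high cells, at 3.65, 3.02 and 0.278 CPM in Pou4f3-positive cells, and at 2.26, 2.30 and 0.446 CPM in Epcam-positive cells. It made up 89.8%, 79.6% and 76.0% of all alpha chain UMIs in Otor-high cells. On day 25 its level was 212-fold higher there than in Epcam-positive cells (136 to 349). Otor-high cells held 29.0%, 81.0% and 57.1% of Lama4 UMIs, and cells in no class 51.2%, 13.6% and 36.8%. Lama2, the alpha chain of muscle and peripheral nerve, was at 0.403, 22.4 and 19.4 CPM in Otor-high cells, at 0, 0.696 and 0.556 CPM in Pou4f3-positive cells, and at 0.0734, 0.424 and 0.170 CPM in Epcam-positive cells. It thus appeared on day 5 in Otor-high cells, 55.6-fold above expansion (21.6 to 205, from 4 UMIs).

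Lama5, the widespread alpha chain of epithelial basement membranes, was at 3.12, 6.63 and 8.15 CPM in Otor-high cells, at 22.6, 55.4 and 31.1 CPM in Pou4f3-positive cells, and at 32.7, 65.8 and 47.1 CPM in Epcam-positive cells. It was the only laminin chain apart from Lamc1 that reached 20 CPM in Pou4f3-positive cells on day 25. Lama1, the alpha chain of the earliest embryonic basement membranes, was at 1.71, 0.177 and 2.33 CPM in Otor-high cells, at 5.84, 0 and 0.723 CPM in Pou4f3-positive cells, and at 17.9, 0.630 and 0.149 CPM in Epcam-positive cells. Within Epcam-positive cells it was 28.3-fold lower on day 5 than in expansion (21.7 to 37.7). In Pou4f3-positive cells it had no UMI on day 5. With 3 UMIs put in as a floor, the day 5 level was 8.39-fold lower than in expansion. That fold leaves out the counting error of the expansion value. The alpha chain UMIs of Epcam-positive cells were therefore 61.8% Lama5 and 33.7% Lama1 in expansion, 95.1% and 0.910% on day 5, and 98.4% and 0.311% on day 25. Lama3 stayed at or below 0.730 CPM in every class.

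**Figure D5:**
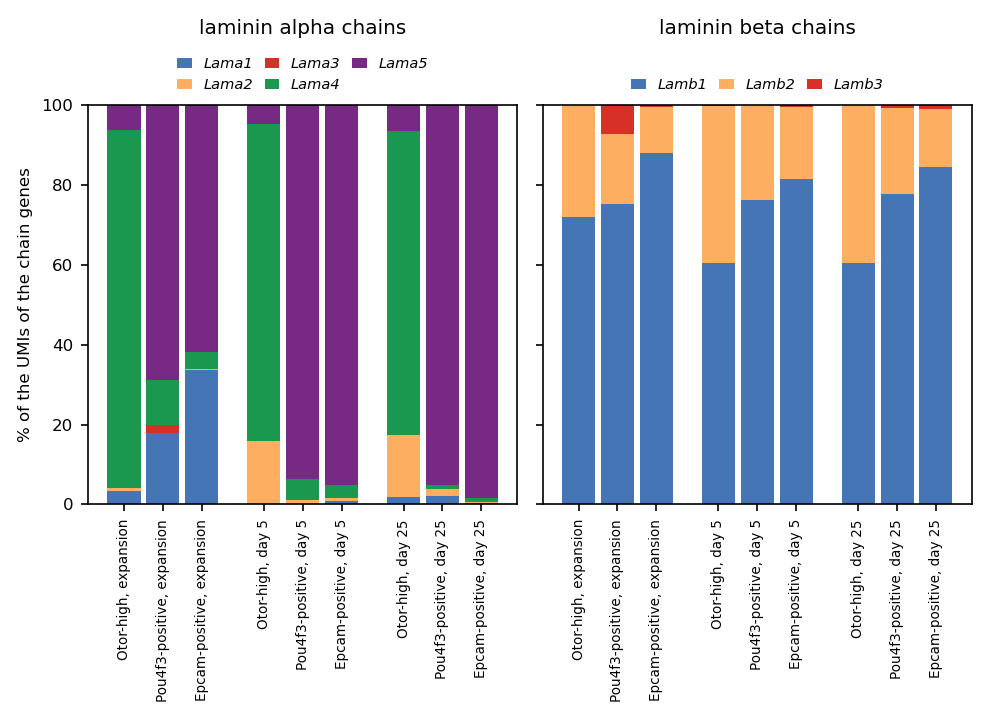
Share of each laminin gene among the UMIs of the alpha and the beta chains, in percent, for each class and library (bars stacked to 100; Otor-high, Pou4f3-positive and Epcam-positive cells from left to right within each library). Lama4 makes up 76.0% of alpha chain UMIs in Otor-high cells on day 25, and Lama5 98.4% in Epcam-positive cells.

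Among the beta and the gamma chains, Lamb1 and Lamc1 had the highest level in every class and library. Lamb1 was at 58.5, 113 and 124 CPM in Otor-high cells, at 53.3, 26.0 and 5.62 CPM in Pou4f3-positive cells, and at 127, 161 and 152 CPM in Epcam-positive cells. Pou4f3-positive cells on day 25 were 27.0-fold below Epcam-positive cells (22.2 to 33.2). Lamb2, the beta chain of mature basement membranes and synapses, was at 22.7, 73.3 and 81.1 CPM in Otor-high cells, at 12.4, 8.12 and 1.56 CPM in Pou4f3-positive cells, and at 16.8, 35.9 and 26.0 CPM in Epcam-positive cells. It made up 27.9%, 39.3% and 39.6% of beta chain UMIs in Otor-high cells and 11.7%, 18.1% and 14.5% in Epcam-positive cells. Lamb3 peaked at 5.11 CPM (7 UMIs, in Pou4f3-positive cells in expansion).

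Lamc1, the common gamma chain, was at 37.2, 110 and 140 CPM in Otor-high cells, at 16.8, 33.9 and 56.5 CPM in Pou4f3-positive cells, and at 26.6, 37.6 and 70.6 CPM in Epcam-positive cells. In Pou4f3-positive cells on day 25, Lamc1 thus stood within 2-fold of Epcam-positive cells, whereas Lamb2 was 16.7-fold lower (11.5 to 25.2) and Lamb1 27.0-fold lower. Lamc3, a gamma chain studied in retina and brain, was at 0, 2.32 and 6.12 CPM in Pou4f3-positive cells, against 0.0808, 0.137 and 0.297 CPM in Epcam-positive cells, and on day 25 it was 20.6-fold higher there (11.8 to 38.9). Its exons overlap Gm13441 on the opposite strand, as Lama2 does with Gm48084 and Col4a2 with Gm15419.

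Comparing times within a class against all genes, 13 of 21 members past the floor were higher on day 5 than in expansion in Epcam-positive cells and 2 lower, where 14.6% and 10.7% of all genes were. In Pou4f3-positive cells 6 of 16 were higher and 4 lower, against 15.3% and 11.8%. With cells of a single Pou4f3 UMI let into the class, 9 of 18 were higher and 1 lower, and with called doublets kept 6 of 17 and 2. In Otor-high cells 20 of 26 were higher and 1 lower, against 20.7% and 4.95%. On day 25 against day 5, 3 of 21 members were higher and 4 lower in Epcam-positive cells. The first is near the 16.6% of all genes that were higher, and the second above the 6.76% that were lower. TMM scaling gave 2 higher and 6 lower of 20, where 1218 and 1152 of 10423 genes were. In Pou4f3-positive cells 3 of 16 were higher and 5 lower, against 17.7% and 9.96%. In Otor-high cells 13 of 29 were higher and 2 lower, against 16% and 6.18%. TMM scaling gave 9 higher and 2 lower of 28, where 1032 and 1259 of 10462 genes were. Among the 24 members described with values, values near 2-fold were lost with TMM scaling of the classes between times. In Epcam-positive cells these were Col9a2, Col16a1, Col26a1 and Lamb2 (day 5 against expansion) and Col16a1 (day 25 against day 5). In Otor-high cells they were Col4a1, Col9a2, Col26a1 and Lama4 (day 5 against expansion) and Col6a6 and Col25a1 (day 25 against day 5).

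The 13 members under 5 CPM throughout were Col1a1, Col5a3, Col6a4, Col6a5, Col7a1, Col8a2, Col10a1, Col17a1, Col19a1, Col22a1, Col24a1, Col28a1 and Lama3. Of these, Col6a4, Col10a1, Col17a1, Col22a1, Col28a1 and Lama3 stayed under 1 CPM in every library and class. They include Col10a1, the marker of hypertrophic cartilage, and Col17a1, a hemidesmosome collagen of skin.

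Genes that make, bind or cut collagens were counted in 6 lists. In Otor-high against Epcam-positive cells on day 25, where 14.3% of all genes were higher and 13.3% lower, 3 of 6 measured cross-linking genes were higher and none lower, led by the lysyl oxidase Lox (187 CPM in Otor-high cells, 6.65 CPM in Epcam-positive cells) and Loxl2 (97.4 and 3.14 CPM). Of 10 fibril-binding genes, 6 were higher, among them the proteoglycan Bgn (205 and 1.81 CPM) and Postn (86.5 and 0.446 CPM), and 3 were lower. Of 10 degradation genes, 7 were higher, such as the protease Ctsk (52.8 and 0.404 CPM), and 1 was lower. Of 14 receptors 2 were higher, which is the share of all genes, and 6 lower: the collagen receptor Ddr2 was at 241 CPM in Otor-high cells and 1.42 CPM in Epcam-positive cells, while Itgb4, an integrin chain of hemidesmosomes, had 0 UMIs in Otor-high cells and 14.3 CPM in Epcam-positive cells. Basement membrane partners had 4 of 13 higher and 7 lower, with Npnt, a ligand of integrins, at 3.1 CPM in Otor-high cells and 75.8 CPM in Epcam-positive cells. Of 21 measured collagen-processing genes, 6 were higher and 2 lower.

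In Pou4f3-positive against Epcam-positive cells on day 25, 16 of 20 measured collagen-processing genes were lower and 1 was higher. Serpinh1, the collagen chaperone, was at 5.51 CPM in Pou4f3-positive cells and 172 CPM in Epcam-positive cells, and the lysyl hydroxylase Plod2 at 5.68 and 127 CPM; the gene that was higher was Pcolce2, at 362 and 32.4 CPM. Of 10 basement membrane partners 9 were lower, with Sparc at 84.4 CPM in Pou4f3-positive cells and 2195 CPM in Epcam-positive cells, and 1, Smoc2, was higher (97.9 and 26.3 CPM). Of 13 receptors 10 were lower, including the integrin chains Itgb1 (41.2 and 499 CPM) and Itga6 (2.39 and 44.3 CPM), and 2 were higher. Of 8 fibril-binding genes 6 were lower and 2 higher, led by Tnc, the matrix glycoprotein tenascin C, at 134 CPM in Pou4f3-positive cells and 1.59 CPM in Epcam-positive cells. All of these counts stand beside the 18.9% of all genes that were lower and the 20.9% that were higher. Cross-linking genes had 3 of 4 lower, and degradation genes 5 of 7 lower and 2 higher.

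Over whole libraries, each list had more genes higher than lower on day 5 against expansion, where 16.9% of all genes were higher and 7.84% lower: 8 of 22 processing genes were higher and none lower, 4 of 6 cross-linking genes higher and none lower, 8 of 9 fibril-binding genes higher and none lower, 7 of 9 degradation genes higher and none lower, 5 of 13 basement membrane partners higher and 1 lower, and 6 of 12 receptors higher and 1 lower. Examples were Lox, with a day 5 level of 32.0 CPM and an expansion level of 0.548 CPM, and the procollagen protease Adamts2, with 97.0 CPM on day 5 against 2.78 CPM in expansion. On day 25 against day 5, 8 of 21 processing genes were lower and 1 higher, against 7% and 19.1% of all genes, and Serpinh1 had 137 CPM on day 25, against 304 CPM on day 5. Thbs1, a matrix glycoprotein of the fibril-binding list, was higher, with 415 CPM on day 25 against 20.8 CPM on day 5. All of these library counts mix the classes, whose shares are given above.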

How the data were processed

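The authors deposited a filtered 10x matrix of raw UMI counts per gene and cell barcode for each library, made, per the file headers, with Cell Ranger 3.0.1 (expansion, day 5) and 3.1.0 (day 25). GRCm38 and hg38 are named as builds in the submitters' processing notes, and how the second was used is not given in the sources used here. The members and all gene lists were chosen with earlier results of these data known.

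From the counts, barcodes with under 500 genes or over 20% mitochondrial UMIs were left out, and doublets were called per library with Scrublet in scanpy 1.11.5 (1500 variable genes, 30 components, 0.8% expected per 1000 barcodes). It called 7.25%, 4.31% and 2.08% of barcodes in expansion, on day 5 and on day 25, against 22.4%, 11.1% and 5.01% expected, so doublets remain in the classes. Kept libraries shared 110 (day 5 and expansion), 20 (day 25 and day 5) and 45 (day 25 and expansion) barcodes. UMIs were summed per library or class and scaled to CPM. In addition to the class rules given above, Otor-high cells had under 2 Epcam UMIs and no Pou4f3 UMI, Pou4f3-positive cells under 20 Otor UMIs per 10000, and Epcam-positive cells no Pou4f3 UMI and under 20 Otor UMIs per 10000. Differences were called from a fold of 2 in CPM + 1 among genes with 5 CPM in either group, with no test, since each group has 1 library. Members were described with values when they reached 20 CPM in any library or class. Intervals are exact (Poisson, Clopper-Pearson, or the conditional binomial for folds; scipy 1.17.1). Alternatives were TMM scaling (edgeR 4.0.16), median-of-ratios scaling (DESeq2 1.42.0), other pseudocounts, floors, marker thresholds and doublets kept. The rule was also run on simulated counts, with folds of 1.5, 3 and 5 set for genes of at least 20 CPM. These counts held counting error only, so they do not check variation between libraries or changed genes under 20 CPM. Gene positions are from the GRCm38 annotation, and promoters from the RefSeq table of GRCm38.p6; 14 members without an entry there were not searched. The values of 1 member are not reported here, and the counts of members include it.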

Additional observations from a re-analysis of the deposited data

Results flagged for a closer look

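Col25a1 moved in opposite directions in the classes between expansion and day 5, which is why it is listed here. On day 5 against expansion its log2 difference of CPM + 1 was -2.54 in Epcam-positive cells, 1.09 in Pou4f3-positive cells and 1.89 in Otor-high cells. The difference between the classes was not tested, since each group is 1 library. The expansion value of Pou4f3-positive cells rests on 9 UMIs, and with cells of a single Pou4f3 UMI let into the class the value was 0.26.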

How the results depend on the processing

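No paired analysis was possible because each group is 1 library. Of 192 counts of members under alternatives, 155 stayed within 1.5 times. Of 1107 values of named members, 1035 kept direction and call, 70 kept direction but passed under 2-fold, and 2 turned. By construction, a change of floor cannot alter a value. The 1035 thus include 33 values with a floor of 1 CPM and 144 with 20 CPM that could not change. Members under the floor of a setting were not counted in it. With TMM scaling 2 members were lower on day 5 against expansion, 3 higher and 10 lower on day 25 against day 5, and 3 lower on day 25 against expansion; median-of-ratios scaling gave 2 and 3 lower on day 5 and day 25 against expansion. Both shift all genes: with TMM the median gene moved to -0.08, -0.09 and -0.16 (log2), against 0.21, 0.21 and 0.45 with CPM. In the same order, 1338 of 10977, 1395 of 10972 and 2365 of 11153 genes were lower with TMM. With a pseudocount of 5 CPM, 3 were higher and 2 lower on day 25 against day 5. With a floor of 1 CPM, more members were counted, with 8 higher on day 25 against day 5 and 21 against expansion.

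A floor of 20 CPM counts fewer members. It left 9 higher and 0 lower (day 5 against expansion), 3 and 3 (day 25 against day 5) and 0 lower (day 25 against expansion). It left 3 higher and 6 lower in Otor-high against Epcam-positive cells of expansion, 0 higher and 6 lower in Pou4f3-positive against Epcam-positive cells of expansion, and 0 and 1 higher on day 5 and day 25. Between times it left 8 higher and 0 lower (Epcam-positive, day 5 against expansion), 1 lower (Epcam-positive, day 25 against day 5), 3 higher and 2 lower (Pou4f3-positive, day 5 against expansion) and 13 higher and 0 lower (Otor-high, day 5 against expansion).

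With the Pou4f3 and Epcam cuts both at 1 UMI, Pou4f3-positive cells of expansion had 0 members higher and 4 lower than Epcam-positive cells. On day 5 they had 7 lower. Of all genes, 251 of 10483 and 434 of 10707 were lower in these 2 comparisons. Within Pou4f3-positive cells 1 member was lower on day 5 against expansion. In this setting the value of Lamb1 in Pou4f3-positive cells (day 5 against expansion) was 0.26 in place of -1.01, and that of Col27a1 (day 25 against day 5) -0.27 in place of 1.39; the cause was not tested. At 3 UMIs, 0 were higher in expansion. With called doublets kept, 0 were higher and 6 lower in expansion, where 549 of 10516 genes were lower. Within Pou4f3-positive cells 2 were then lower on day 5 against expansion. With Otor at 50 per 10000, 1 was lower on day 25 against day 5 within Otor-high cells. Shares of cells depended on depth: 31 of 36 moved when cells were not thinned. The 154 Pou4f3-positive cells of expansion set the weakest values, with a floor of 2.19 CPM for 3 UMIs.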
